A study of Mus musculus with 27 samples.

Results

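The left ventricles compared here all carried pressure overload and differed in genotype: 4 small RNA libraries from caPI3Kalpha mice after TAC against 5 from wild-type (WT) mice after TAC. These 9 libraries of 27 in the series were chosen by their labels alone. MicroRNAs (miRNAs) were described across the whole table, in which 262 of 421 miRNAs had enough reads to be tested. The mice were adult and of the FVB strain, and the ventricle was taken 7 days after the operation. The caPI3Kalpha mice carry a mutant PI3Kalpha, and the study's title speaks of enhanced PI3Kalpha signaling; the promoter that drives the transgene is not given in the sources used here. The WT mice carry no such allele. TAC (transverse aortic constriction) narrows the aorta so that the ventricle pumps against a raised load, and both compared groups had it. Sham-operated WT (n = 4) and caPI3Kalpha (n = 3) libraries were in the same fit and serve as the unloaded background. In the table of messenger RNA from ventricles of the same groups, Pik3ca, which encodes the catalytic subunit PI3Kalpha, stood at 5.6, 8.1 and 8.9 RPKM in WT TAC 1, 17 and 19 and at 110.5 and 101.3 RPKM in caPI3Kalpha TAC 11 and 211.

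PI3Kalpha is the lipid kinase by which insulin and insulin-like growth factor receptors activate Akt, and in heart muscle it is known for driving the growth seen with exercise. A miRNA is a short RNA that guides Argonaute proteins to messenger RNAs, mostly by pairing of its seed, bases 2 to 8 from the 5′ end, and so lowers their output. In the loaded heart, miR-21 is known from fibroblasts and the miR-146 pair from inflammatory signalling, while miR-1, miR-133a, miR-208a and miR-499 are made by cardiac muscle cells. A ventricle holds many cell types, and in such bulk tissue fewer cells of a type and less RNA per cell cannot be told apart.

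The sequences below are those of the miRNAs on which the results turn, given as RNA from RefSeq (GRCm38.p6), 5′ to 3′, with the seed in capitals; all 34 miRNAs called in the main test had an entry. First come miR-21, which gave the smallest p-value, and the miR-146 pair, which share a seed and moved in opposite directions. Counted from the 5′ end, miR-146b differs from miR-146a by G18A and U21C, both outside the seed.
miR-21: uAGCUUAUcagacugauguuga
miR-146a: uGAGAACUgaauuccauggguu
miR-146b: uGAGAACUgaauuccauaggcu
The mature miR-21 lies at chr11:86584120-86584141 on the minus strand, miR-146a at chr11:43374435-43374456 on the minus strand and miR-146b at chr19:46342790-46342811 on the plus strand.

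The next set is the 10 called members of the imprinted cluster on chromosome 12, shown because they make up a large share of the lower calls; their seeds differ, although miR-300 and miR-381 are near copies (miR-381 differs from miR-300 by G4A, U21G and C22U, the first of them in the seed).
miR-540-3p: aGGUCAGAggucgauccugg
miR-431: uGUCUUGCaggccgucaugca
miR-341: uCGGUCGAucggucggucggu
miR-299: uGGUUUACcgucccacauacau
miR-300: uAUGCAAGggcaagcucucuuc
miR-381: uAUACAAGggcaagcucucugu
miR-134: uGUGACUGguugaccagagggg
miR-541: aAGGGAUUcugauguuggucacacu
miR-409-3p: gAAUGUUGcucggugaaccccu
miR-410: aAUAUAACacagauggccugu
They lie on the plus strand between miR-540-3p at chr12:109586122-109586141 and miR-410 at chr12:109743764-109743784.

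The last set pairs miRNAs of one seed family or one transcript that are compared below: miR-17 and miR-20a (miR-20a differs from miR-17 by C1U and C12U), miR-25 and miR-92a, miR-208a-3p and miR-208b (which differs by G10A, A16G and C18U), and the red blood cell pair miR-144 and miR-451.
miR-17: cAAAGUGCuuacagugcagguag
miR-20a: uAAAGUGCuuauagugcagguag
miR-25: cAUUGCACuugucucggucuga
miR-92a: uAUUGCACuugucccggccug
miR-208a-3p: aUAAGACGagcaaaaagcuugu
miR-208b: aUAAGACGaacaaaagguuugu
miR-144: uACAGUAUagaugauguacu
miR-451: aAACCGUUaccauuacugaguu
miR-223: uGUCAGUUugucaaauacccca
miR-223, known from myeloid cells, is at chrX:96242884-96242905 on the plus strand.

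The 9 libraries held 3419653 to 7676588 counted reads, and the tested miRNAs held 99.994% of them. Levels are given as CPM, read counts brought to one common library total, after TMM scaling, edgeR's correction for differences in composition between libraries. The column names of the deposited table come in 2 forms, without a space before the animal number (WT TAC 1 and 2, caPI3Kalpha TAC 11 and 211) and with one (WT TAC 17, 19 and 20, caPI3Kalpha TAC 8 and 9), and these are treated as 2 library sets, although the labels do not name them. Spearman's rho across miRNAs was 0.983 to 0.994 between libraries of one set and group, 0.967 to 0.983 between sets within a group, and 0.971 to 0.983 between groups within a set, so the set separated libraries about as much as the genotype. Both genotypes are in both sets. The labels number the samples but state nothing further on how replicates were drawn for the small RNA libraries, so p-values measure the spread between these samples.

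Under load, 34 of 262 miRNAs (13%) differed between the genotypes by edgeR's quasi-likelihood test at a Benjamini-Hochberg adjusted p under 0.05: 11 (4.2%) were higher and 23 (8.78%) lower in caPI3Kalpha TAC. miR-21, miR-146b and 10 miRNAs of the chromosome 12 cluster made up 12 of the lower calls, with miR-223 and miR-142-3p, miR-17, miR-19b and miR-20a, and miR-214 among the rest. The higher calls included miR-146a, miR-192, miR-204, miR-25, miR-181d and miR-144. Changes were moderate: 11 of the 34 calls reached 2-fold, 4 higher and 7 lower, and the median log2 fold change over all 262 was -0.04. Of the 34, 25 had CPM ranges that did not overlap between the groups (7 higher, 18 lower), against 36 of all 262 (13.7%; 3.82% higher, 9.92% lower). In the scatter of level against difference, miR-21 stands apart: no miRNA of its mean level or above it fell by as much.

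**Figure D1:**
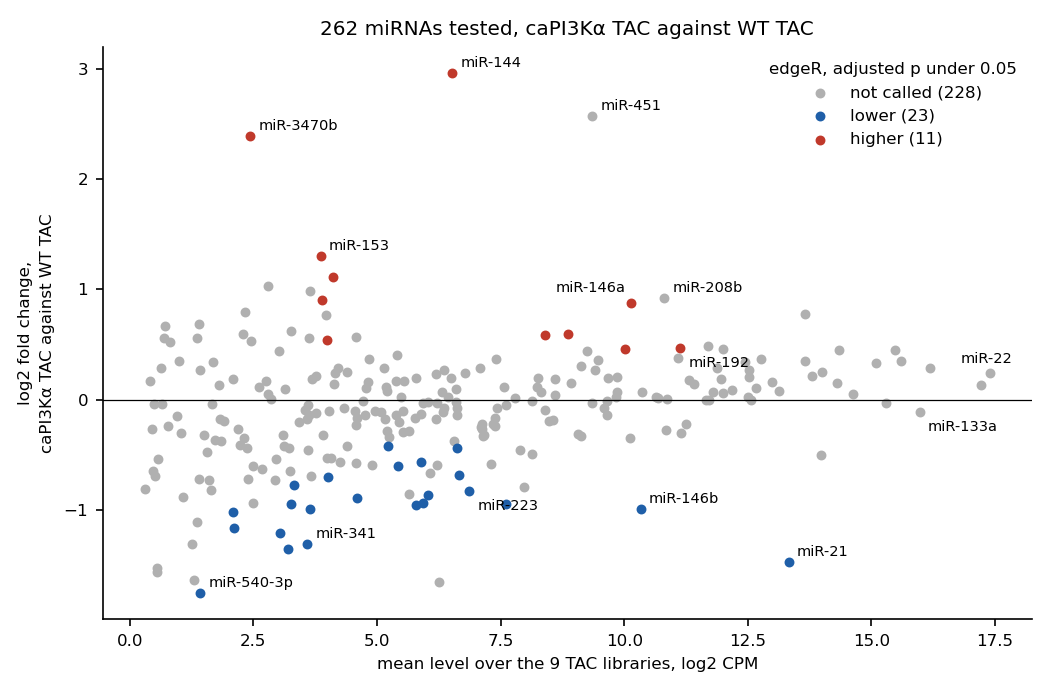
Each point is 1 of 262 tested miRNAs; the x axis is its mean level over the 9 TAC libraries (log2 CPM) and the y axis its log2 fold change, caPI3Kalpha TAC against WT TAC. Red points (11) were called higher and blue points (23) lower by edgeR; miR-21 lies at -1.47 and miR-144 at 2.96.

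When the library set entered the same test as a term, 64 miRNAs (24.4%) were called, 23 higher and 41 lower. All 34 were among them, and all 34 had the same direction within each set analysed alone. The 34 were called on the libraries of both sets together, so this agreement is in part built in. Within the set without a space, 40 were called (16 higher, 24 lower); 38 of these were tested in the other set, 37 had the same direction there and 6 were called there too. Within the set with a space, 13 were called (5 higher, 8 lower), of which 12 could be read in the other set; all 12 had the same direction and 6 were called. Over all 256 miRNAs tested in both sets, 189 had the same direction. Scaling by library totals in place of TMM moved the median of all miRNAs to -0.19 and the calls to 7 higher and 41 lower, so the balance of directions depends on the scaling.

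**Figure D2:**
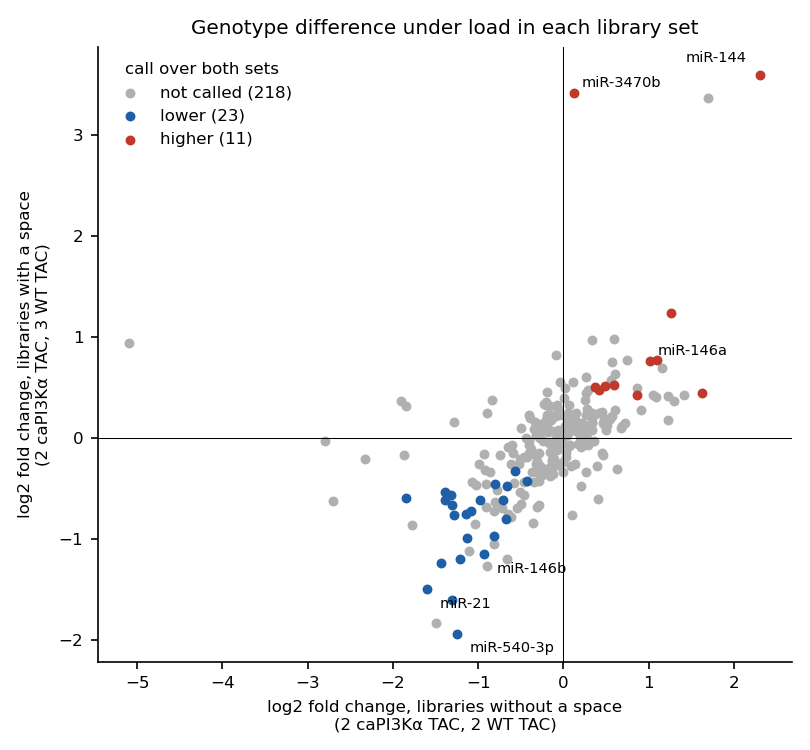
The x axis is the log2 fold change, caPI3Kalpha TAC against WT TAC, in the libraries without a space in the column name (2 against 2), and the y axis the same in those with a space (2 against 3), for the 252 of the 262 miRNAs with a value in both. The called miRNAs (blue lower, red higher), which were called on both sets together, all lie in the lower left or upper right corner. miR-3470b is at 0.12 on the x axis and 3.42 on the y axis.

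miR-21 was measured at 19938, 17149.9, 11447, 10444 and 12669.7 CPM in WT TAC 1, 2, 17, 19 and 20, and at 3768, 4213, 6527 and 6175 CPM in caPI3Kalpha TAC 8, 9, 11 and 211. The groups did not overlap: the highest caPI3Kalpha library was below the lowest WT library. The means were 14329.8 CPM ± 4050 (SD, n = 5) and 5171 CPM ± 1380 (SD, n = 4), a 2.77-fold lower level in caPI3Kalpha (log2 -1.47, SE 0.23, adjusted p = 0.00302 by edgeR). After sham, WT libraries held 5213, 4406, 3895 and 3447 CPM and caPI3Kalpha libraries 5735, 5529 and 3732 CPM, so the loaded caPI3Kalpha libraries lay close to the range of the unloaded ones. Of all counted reads, miR-21 took 1.15 to 2.31% in WT TAC and 0.415 to 0.653% in caPI3Kalpha TAC. Its precursor is made from the 3′ end of the Vmp1 gene, whose messenger stood at 11.1, 14.9 and 11.1 RPKM in WT TAC 1, 17 and 19 and at 9.3 and 8.6 RPKM in caPI3Kalpha TAC 11 and 211.

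The miR-146 pair parted by genotype. miR-146b, which is transcribed from chromosome 19, was measured at 1922, 1649.7, 1616, 1728 and 1335 CPM in WT TAC and at 577, 797, 889 and 1064 CPM in caPI3Kalpha TAC, in the library order above. No caPI3Kalpha library reached the WT range, and the level was 1.98-fold lower (log2 -0.99, SE 0.18, adjusted p = 0.00393 by edgeR). miR-146a, from chromosome 11, was measured at 614, 908, 674.5, 1144 and 739 CPM in WT TAC and at 1301, 1516.5, 1290.0 and 1904 CPM in caPI3Kalpha TAC. Here every caPI3Kalpha library was above every WT library, 1.84-fold on average (log2 0.88, SE 0.19, adjusted p = 0.00927 by edgeR).

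A ratio of the 2 within a library does not depend on scaling. miR-146b made up 67.1% ± 6.11 (SD, n = 5) of the reads of the pair in WT TAC, from 60.2 to 75.8%, and 35.5% ± 4.16 (SD, n = 4) in caPI3Kalpha TAC, from 30.7 to 40.8%. After sham the share was 37.9% ± 2.58 (SD, n = 4) in WT and 42.3% ± 2.27 (SD, n = 3) in caPI3Kalpha. The WT TAC libraries were thus the ones that stood apart, and the caPI3Kalpha TAC range overlapped the sham range of WT. This ratio was chosen after the values of both miRNAs had been seen and is given as a description. The 2 forms differ at 2 bases near the 3′ end, so reads of one that end early or carry an error could be counted as the other; how the authors assigned them is not given in the sources used here.

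**Figure D3:**
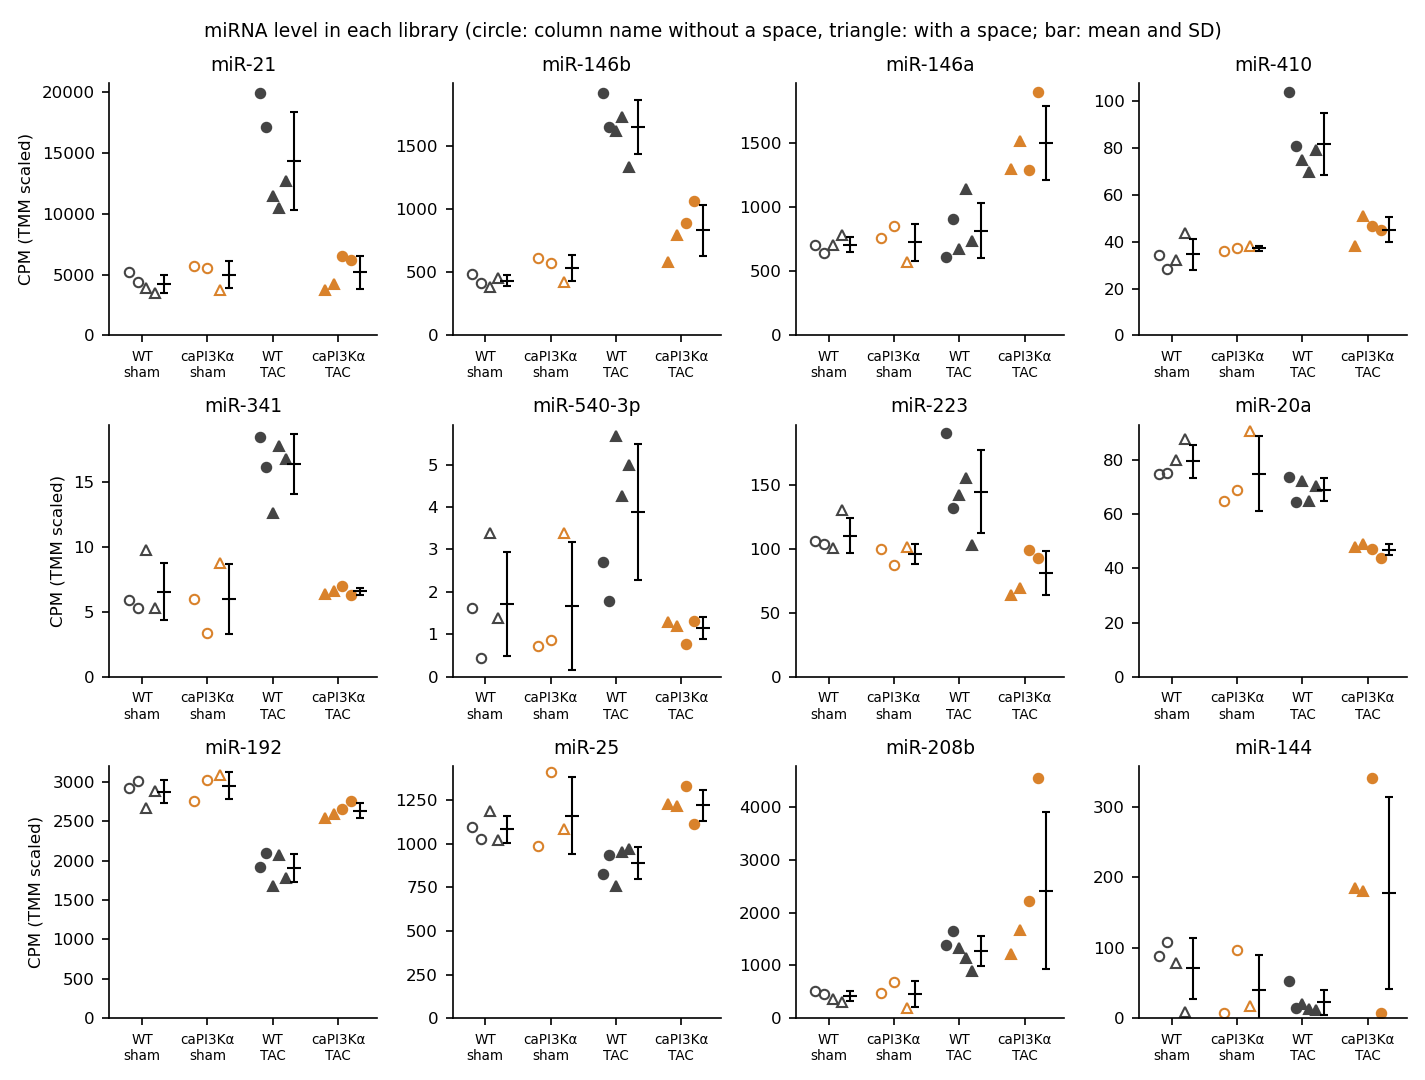
TMM-scaled CPM (y axis, from 0) of 12 miRNAs in every library of the 4 groups; grey is WT, orange caPI3Kalpha, open symbols sham, filled symbols TAC, circles and triangles the 2 library sets, and bars the mean and SD. miR-21, miR-146b, miR-410 and miR-341 are high in WT TAC alone, and miR-146a is high in caPI3Kalpha TAC alone. miR-20a is lowest in caPI3Kalpha TAC, while for miR-192 the WT TAC libraries are the low ones.

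The chromosome 12 cluster is the Dlk1 to Dio3 imprinted region, whose miRNAs are processed from long noncoding transcripts of the maternal chromosome that begin with Meg3. The table held 53 of its mature miRNAs, of which 26 had enough reads to be tested. In caPI3Kalpha TAC 10 of the 26 were called lower and none higher, against 8.78% lower among all miRNAs. The median log2 fold change of the 26 was -0.75, against -0.04 over all, and 25 of the 26 were below 0. Their summed level overlapped between the groups, at 3157.2 to 3991.1 CPM in WT TAC and 2383.4 to 3408.7 CPM in caPI3Kalpha TAC. Both ranges were above those of sham, 1611.3 to 1762.7 CPM in WT and 1506 to 1847.3 CPM in caPI3Kalpha. Most of the sum was miR-127, with means of 2473.4 CPM in WT TAC and 2004.6 CPM in caPI3Kalpha TAC (log2 -0.3, not called). In 11 of the 26 the CPM ranges of the groups did not overlap, against 13.7% of all miRNAs (9.92% with caPI3Kalpha lower). RefSeq places the hairpins of 49 of the 53, all on the plus strand of chromosome 12 between 109563692 and 109747960, a span of 184 kb. The list was drawn up with earlier results of these data known, and no test of the list was made. Its other members are scarce: the 27 untested ones together held 587 reads in WT TAC and 290 in caPI3Kalpha TAC, which is 24.8 and 12.1 CPM by library totals.

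Among its called members, miR-410 was measured at 104, 80.9, 74.8, 69.7 and 79.3 CPM in WT TAC and at 38, 50.8, 46.5 and 44.8 CPM in caPI3Kalpha TAC (log2 -0.86, SE 0.16, adjusted p = 0.00393 by edgeR). miR-341 was measured at 18.5, 16.2, 12.6, 17.8 and 16.8 CPM and at 6.39, 6.58, 7 and 6.34 CPM (log2 -1.31, SE 0.25, adjusted p = 0.00437). In both, the lowest WT library was above the highest caPI3Kalpha library, and the caPI3Kalpha TAC libraries lay within or near the sham range, which for miR-341 ran from 5.27 to 9.8 CPM in WT. miR-300 was measured at 97.9, 78.9, 59.3, 56.9 and 61.1 CPM and at 35.1, 41, 41.4 and 28.6 CPM (log2 -0.95, SE 0.18, adjusted p = 0.0047). miR-541 was measured at 231.3, 191.7, 243.7, 278.8 and 285.4 CPM and at 85.5 CPM (number 211) to 181.1 CPM (number 9) in caPI3Kalpha TAC (log2 -0.94, SE 0.21, adjusted p = 0.00959). These groups too did not overlap, although for miR-541 caPI3Kalpha TAC 9 came near WT TAC 2.

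miR-540-3p is among the scarcest miRNAs tested. It was measured at 2.71, 1.78, 5.67, 4.26 and 4.99 CPM in WT TAC and at 1.3, 1.2, 0.778 and 1.31 CPM in caPI3Kalpha TAC, again without overlap. Its fold was 3.35 (log2 -1.75, SE 0.51, adjusted p = 0.0313 by edgeR), the largest fall among the calls, and the adjusted p was between 0.0236 and 0.0829 when one TAC library was left out. The other calls in the cluster were miR-409-3p (log2 -0.99), miR-299 (-1.02), miR-431 (-0.77), miR-134 (-0.94) and miR-381 (-0.93), the last 2 with overlapping groups.

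Members of the cluster did not fall evenly. miR-127 (log2 -0.3), miR-433 (-0.32), miR-154 (-0.17) and miR-136 (0.08) were not called, and none of the 4 was called with the set term. With the set term 17 of the 26 were called lower, against 15.6% of all miRNAs, and the median was again -0.75. In the set without a space the median was -1.03, with 11 called lower of 24 tested, against a median of -0.14 and 24 lower of 266 (9.02%) over all miRNAs. In the set with a space it was -0.61, with 4 of 25, against -0.02 and 8 of 272 (2.94%). The count of 10 fell to between 5 and 8 when one TAC library was left out. It was 6 or fewer without WT TAC 17 or 20 or caPI3Kalpha TAC 8, 11 or 211. In the same fits the lower calls over all 257 to 263 miRNAs tested fell from 23 to between 11 and 18. After sham the median genotype difference of the 26 was -0.01. Meg3, the noncoding gene at the start of the cluster, stood at 11.4, 6.5 and 4.6 RPKM in WT TAC 1, 17 and 19 and at 2.7 and 3.9 RPKM in caPI3Kalpha TAC 11 and 211. After sham it stood at 1.6 to 3.7 RPKM in WT and at 4.7 and 3.4 RPKM in caPI3Kalpha 5 and 8. These are values without a test.

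**Figure D4:**
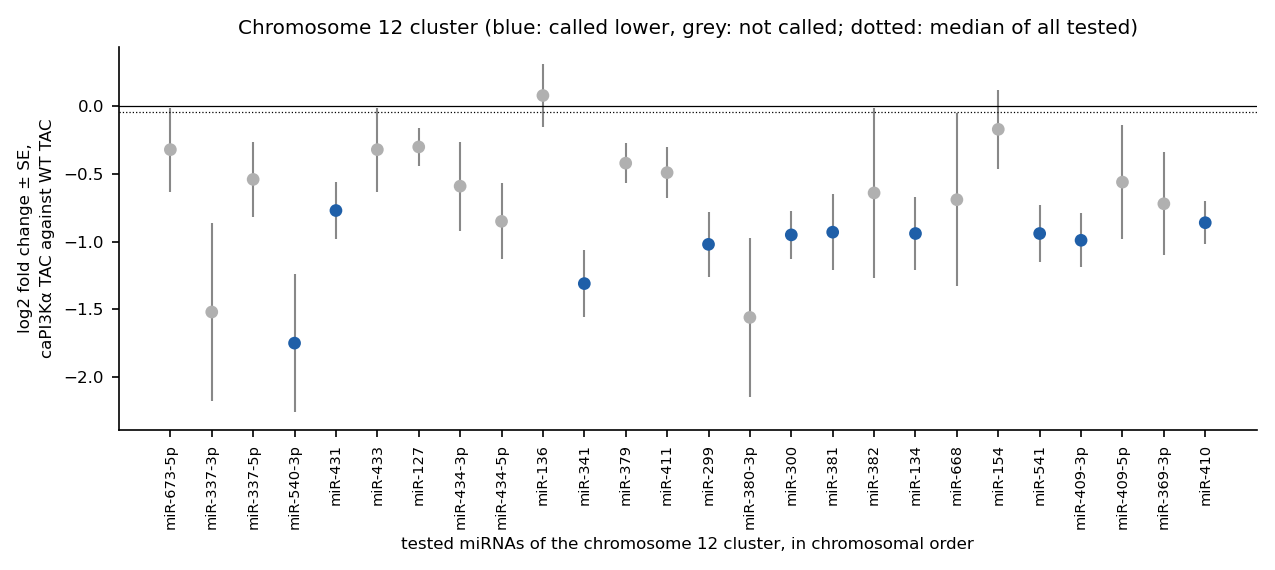
Log2 fold change, caPI3Kalpha TAC against WT TAC, with its SE (y axis) for the 26 tested miRNAs of the chromosome 12 cluster in chromosomal order (x axis); blue points were called lower, grey points were not called, and the dotted line is the median of all 262 (-0.04). Of the 26, 25 lie below 0, and called members occur along the whole row from miR-540-3p to miR-410.

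Calls in both directions were made in a growth-related cluster and its copy. The miR-17 to miR-92 cluster on chromosome 14 is known for promoting growth and division of cells, and the miR-106b to miR-25 cluster on chromosome 5 is its copy. From chromosome 14, miR-20a was measured at 73.8, 64.4, 72.2, 64.9 and 70.4 CPM in WT TAC and at 47.8, 49, 47.3 and 43.9 CPM in caPI3Kalpha TAC (log2 -0.56, SE 0.12, adjusted p = 0.00959 by edgeR). The groups were well separated with little spread in either. Sham WT libraries held 74.9 to 87.9 CPM, above every TAC library of either genotype, and the caPI3Kalpha TAC libraries were the lowest. miR-17 (log2 -0.42, adjusted p = 0.0264) and miR-19b (-0.44, adjusted p = 0.0264) were also lower without overlap, but the call of miR-19b held in 1 of the 9 fits that left out one TAC library and that of miR-17 in 0. miR-19a (-0.42), miR-18a (-0.26) and miR-92a (0.06) were not called; miR-19b and miR-92a have a second copy on chromosome X, and reads from the copies cannot be told apart.

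From chromosome 5, miR-25 was measured at 828, 933, 756, 953 and 968 CPM in WT TAC and at 1226, 1214, 1329 and 1112 CPM in caPI3Kalpha TAC. Every caPI3Kalpha library was above every WT library (log2 0.46, SE 0.13, adjusted p = 0.028 by edgeR). The call held in 2 of the 9 fits that left out one TAC library. miR-106b (0.2) and miR-93 (0.19), from the same transcript, were not called. miR-20a, miR-17, miR-106b and miR-93 share the seed AAAGUGC, and miR-25 and miR-92a share AUUGCAC. Of the 9 tested members of both clusters, 3 were called lower and 1 higher, against 8.78% and 4.2% of all miRNAs. With one TAC library left out, 1 lower call remained in 8 of 9 fits and 2 without caPI3Kalpha TAC 8. The higher call was made only without WT TAC 19 or caPI3Kalpha TAC 211. Over all 257 to 263 miRNAs tested, those fits called 11 to 18 lower and 3 to 7 higher.

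Of miRNAs described to rise in the stressed or fibrotic heart, 16 were tested; 3 were called lower (miR-21, miR-146b and miR-214), 1 higher (miR-146a), and 13 of the 16 had a log2 fold change below 0, with a median of -0.28. Among all miRNAs 8.78% were called lower and 4.2% higher, with a median of -0.04. With the set term 6 of the 16 were called lower and 2 higher, against 15.6% and 8.78% of all miRNAs. With library totals 6 were lower and 1 higher, against 41 and 7 of all 262. The median was then -0.47 for the list and -0.19 over all. miR-214, made together with miR-199a from an antisense transcript in a Dnm3 intron and known from fibroblasts and loaded muscle, was measured at 109.3, 107.8, 161.8, 104.8 and 125.5 CPM in WT TAC and at 85.9, 81.7, 80.3 and 57.1 CPM in caPI3Kalpha TAC. These did not overlap (log2 -0.68, SE 0.19, adjusted p = 0.0276 by edgeR), and the call held in 2 of the 9 fits that left out one TAC library. Its partner miR-199a-5p overlapped widely and was not called (-0.35, adjusted p = 0.574), but was called lower with the set term (-0.51, adjusted p = 0.0183). The pair is the list of fibroblast-enriched miRNAs: its summed level ran from 943.1 to 1741.6 CPM in WT TAC, 637.7 to 1380.7 in caPI3Kalpha TAC and 377.9 to 957.7 in WT sham. The part of fibroblast number in these results was not tested.

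The miR-34 family, known as targets of p53, had 4 tested members, none of them called, with a median of -0.61. miR-34c was measured at 262.1, 226, 168.2, 132.5 and 134.4 CPM in WT TAC and at 86.7, 112.8, 176.2 and 119.4 CPM in caPI3Kalpha TAC, and caPI3Kalpha TAC 11 fell inside the WT range. Its log2 fold change was -0.58 (adjusted p = 0.131 by edgeR); with the set term it was -0.61 (adjusted p = 0.0168), and miR-34b-3p was then also called lower (-1.12, adjusted p = 0.0367).

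Muscle miRNAs gave no call among 7 tested, with a median of -0.11. miR-133a, which restrains growth of heart muscle cells, was measured at 60515, 69542, 69925, 67640.5 and 64525 CPM in WT TAC and at 59543, 51833, 66477 and 69206 CPM in caPI3Kalpha TAC (log2 -0.11, SE 0.11). miR-1 had a log2 fold change of 0.11 (SE 0.2), miR-208a-3p of -0.14 (SE 0.17) and miR-499 of 0.03 (SE 0.22). These differences were no larger than the spread between libraries. In sham WT libraries miR-133a held 78822 to 99198 CPM and in sham caPI3Kalpha libraries 91562 to 95191 CPM, above every TAC library of either genotype.

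miR-208b, which lies in an intron of Myh7 as miR-208a lies in Myh6, was the exception in size. It was measured at 1386, 1646, 1338, 1134 and 886 CPM in WT TAC and at 1221.5, 1680.3, 2216 and 4557 CPM in caPI3Kalpha TAC. Only caPI3Kalpha TAC 11, 211 and 9 exceeded the WT range, the last by little, and the groups overlapped (log2 0.92, SE 0.37, adjusted p = 0.109 by edgeR). Without caPI3Kalpha TAC 211 the value was 0.44, and with the set term it was 0.72 (adjusted p = 0.0367). Myh7 messenger was highest in the same animal number, at 1525.8 RPKM in caPI3Kalpha TAC 211 against 831.1 in caPI3Kalpha TAC 11 and 671.2 to 940.5 in WT TAC.

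In the following families with many copies in muscle and connective tissue, no member passed in the main test. The miR-29 and miR-30 families gave none of 8 (median 0.1, and -0.07 when scaled by library totals). miR-30a, one of the 5 most read miRNAs, was measured at 44148, 44653, 39991, 49637.5 and 41658 CPM in WT TAC and at 49242, 52331, 55495 and 68046 CPM in caPI3Kalpha TAC, with caPI3Kalpha TAC 8 just inside the WT range (log2 0.35, SE 0.12, adjusted p = 0.0541 by edgeR; 0.34 and adjusted p = 0.0168 with the set term). The let-7 family gave none of 9 (median 0.02, -0.12 by library totals), the miR-10, miR-99/100 and miR-125 group none of 10 (median 0.2) and the miR-15 and miR-16 family none of 6 (median 0.2). The most read miRNA, miR-22, had a log2 fold change of 0.24 (SE 0.19). For these lists the data show no call at this spread, not that their members are equal between the genotypes.

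The miR-181 family had 4 tested members, all with one seed (ACAUUCA) and all above 0, with a median of 0.4 against -0.04 over all miRNAs. Of the 4, 1 was called higher, against 4.2% of all miRNAs, and 3 with the set term, against 8.78%. With library totals 0 were called and the median was 0.26, against 7 of 262 higher and -0.19 over all. miR-181d was called at 274.6 CPM ± 62.2 (SD, n = 5) in WT TAC and 412.9 CPM ± 38.2 (SD, n = 4) in caPI3Kalpha TAC (log2 0.59, SE 0.16, adjusted p = 0.028 by edgeR). Its WT libraries ran from 205.7 CPM in WT TAC 1 to 349.8 CPM in WT TAC 19, and every caPI3Kalpha library was higher; the call held in 3 of the 9 fits that left out one TAC library. miR-181c, its neighbour on chromosome 8, and miR-181a did not overlap between the groups either, but were called only with the set term (0.28 and 0.46, both adjusted p = 0.0168). Sham WT libraries held 329.2 to 408.4 CPM of miR-181d, so the low libraries were those of WT TAC 1, 2 and 17.

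The other higher calls had no list in common. miR-192, known from liver, gut and kidney, was measured at 1913, 2097, 1681, 2067 and 1784 CPM in WT TAC and at 2538, 2591, 2652 and 2759 CPM in caPI3Kalpha TAC. The groups were separate and the caPI3Kalpha libraries lay close together (log2 0.47, SE 0.1, adjusted p = 0.00959 by edgeR). In WT sham the range was 2673 to 3016 CPM, and caPI3Kalpha TAC 211, at 2759 CPM, lay inside it while the other 3 lay below. miR-194, which has a copy on the same transcript and another on chromosome 1, was not called (0.27). Reads from its copies cannot be told apart. miR-153 (log2 1.3, adjusted p = 0.0183), miR-141 (0.9, adjusted p = 0.0336) and miR-488 (0.54, adjusted p = 0.0281) were scarce and did not overlap; the highest library of the 3 was 27.5 CPM. miR-204 (0.6, adjusted p = 0.0176) and miR-547 (1.11, adjusted p = 0.0264) were called with overlapping groups, and miR-547 fell to 0.79 (adjusted p = 0.123) without caPI3Kalpha TAC 211.

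The call of miR-3470b rested on one library. It was measured at 2.01, 2.54, 1.46, 1.6 and 1.66 CPM in WT TAC and at 6.15, 28.1, 1.71 and 3.5 CPM in caPI3Kalpha TAC (log2 2.39, SE 0.68, adjusted p = 0.0281 by edgeR). Without caPI3Kalpha TAC 9 the value was 1.05 (adjusted p = 0.235).

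Markers of blood cells differed between single libraries. miR-144 and miR-451, which lie side by side on chromosome 11 and are made in red blood cell precursors, had the largest rises. miR-144 was measured at 52.9, 14.5, 20.1, 13.6 and 11.8 CPM in WT TAC and at 185.3, 180.1, 340.1 and 7.21 CPM in caPI3Kalpha TAC. Of the caPI3Kalpha libraries 3 were far above the WT range and 1, number 211, was below it (log2 2.96, SE 0.89, adjusted p = 0.0344 by edgeR). miR-451 followed the same libraries, at 507.4, 88.3, 182.2, 114.4 and 124.6 CPM and at 1530.7, 1313.2, 1944.3 and 52.9 CPM, and was not called (log2 2.57, adjusted p = 0.0541). With the set term miR-451 was called higher (2.66, adjusted p = 0.0284 by edgeR). Of the fits that left out one TAC library, those without WT TAC 1 or caPI3Kalpha TAC 211 called it. The summed level of the pair ran from 102.7 to 560.3 CPM in WT TAC, 60.1 to 2284.4 in caPI3Kalpha TAC, 114.5 to 788.1 in WT sham and 70.7 to 773.7 in caPI3Kalpha sham. Messenger of the haemoglobin gene Hba-a1, looked up after these values were seen, stood at 82.8, 12.7 and 6.7 RPKM in WT TAC 1, 17 and 19 and at 314.4 and 12.5 RPKM in caPI3Kalpha TAC 11 and 211. It stood at 82.6, 14.6, 80.2 and 6 RPKM in WT sham 6, 7, 13 and 15 and at 4.9 and 104.9 RPKM in caPI3Kalpha sham 5 and 8. For the same sham numbers miR-144 was at 87.6, 107.5, 78.4 and 9.15 CPM and at 7.29 and 96.3 CPM, so WT sham 7 did not match. The miR-144 call was lost in 7 of the 9 fits that left out one TAC library. The part of blood left in the tissue in this result was not tested.

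Of 7 leukocyte miRNAs, 2 were called lower, against 8.78% of all miRNAs. In 8 of the 9 fits that left out one TAC library 1 was, and both were without caPI3Kalpha TAC 11. Over all miRNAs these fits called 11 to 18 lower, with 11 of 259 in the fit without caPI3Kalpha TAC 11. miR-223 was measured at 190.5, 131.4, 141.8, 155.4 and 102.6 CPM in WT TAC and at 63.5, 69.5, 99.1 and 92.5 CPM in caPI3Kalpha TAC, narrowly without overlap (log2 -0.83, SE 0.18, adjusted p = 0.00959 by edgeR). miR-142-3p, found across blood cells, was measured at 59.6, 48.9, 53.1, 44.4 and 45.3 CPM and at 36.9, 30.9, 41.4 and 23.2 CPM (log2 -0.6, SE 0.18, adjusted p = 0.0363). Its call held in 1 of those 9 fits and that of miR-223 in all 9. Of the 7, 5 were below 0, with a median of -0.03. The members not called were miR-342-5p (-0.81), miR-155 (-0.03), miR-150 (-0.01), miR-342-3p (0.1) and miR-142-5p (0.15), which is from the same hairpin as miR-142-3p. The summed level of the 7 ran from 994.4 to 1215.6 CPM in WT TAC and 936.6 to 1224.8 in caPI3Kalpha TAC. Endothelial miR-126-3p (log2 0, SE 0.14) and miR-126-5p (0.45, SE 0.26) and smooth muscle miR-143 (0.13) and miR-145 (-0.33) were not called.

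The remaining lower calls were miR-326 (log2 -0.7), miR-298 (-1.35), miR-9 (-0.89), miR-193 (-1.16) and miR-224 (-1.21). miR-9, known from neurons, was measured at 22.7, 39.6, 24.8, 29.3 and 36.1 CPM in WT TAC and at 18.2, 21.7, 12 and 13.8 CPM in caPI3Kalpha TAC (adjusted p = 0.0276 by edgeR). Its groups and those of miR-326 did not overlap, while those of miR-298, miR-193 and miR-224 did. miR-210, known from hypoxia, was named here after its values were seen. It was not called in the main test (log2 -0.66, adjusted p = 0.143 by edgeR), and its groups overlapped. With the set term miR-210 was called lower (log2 -0.73, adjusted p = 0.00124 by edgeR), as were 15.6% of all miRNAs.

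The sham comparison asked whether the genotypes differed without load. No miRNA of 262 (0%) was called between caPI3Kalpha sham and WT sham by edgeR, and 4 had an unadjusted p under 0.05. DESeq2 called 0 with 4 under that value, and edgeR with the set term called 0 with 7. With 3 against 4 libraries a difference of the size seen under load could be missed, so the comparison of both differences was tested as an interaction of genotype and operation.

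Of 262 miRNAs 2 (0.763%) passed that interaction, both lower: miR-21 (log2 -1.71, SE 0.34, adjusted p = 0.0216 by edgeR) and miR-146b (log2 -1.29, SE 0.26, adjusted p = 0.0216). For both, the genotype difference after sham was small and of the other sign, 0.24 (SE 0.26) for miR-21 and 0.3 (SE 0.2) for miR-146b. The next were miR-409-3p (-1.29, adjusted p = 0.0524) and miR-410 (-0.96, adjusted p = 0.0524), both of the chromosome 12 cluster, whose 26 tested members had a median interaction of -0.81 against -0.05 over all miRNAs. With the set term 14 of 262 passed, 1 higher and 13 lower. Among the lower were miR-434-5p, miR-409-3p, miR-410, miR-541, miR-300 and miR-431 of that cluster. The calls depended on which library was left out. Over the 16 fits that each left out one library, miR-21 and miR-146b each passed in 3 (without WT sham 6, WT sham 15 or caPI3Kalpha sham 14). Their interactions ran from -1.89 to -1.5 and from -1.44 to -1.09, with adjusted p from 0.0131 to 0.122 by edgeR. miR-146a (0.84, adjusted p = 0.156) and miR-192 (0.43, adjusted p = 0.18) did not pass, so that their genotype difference was not shown to be larger under load than after sham.

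**Figure D5:**
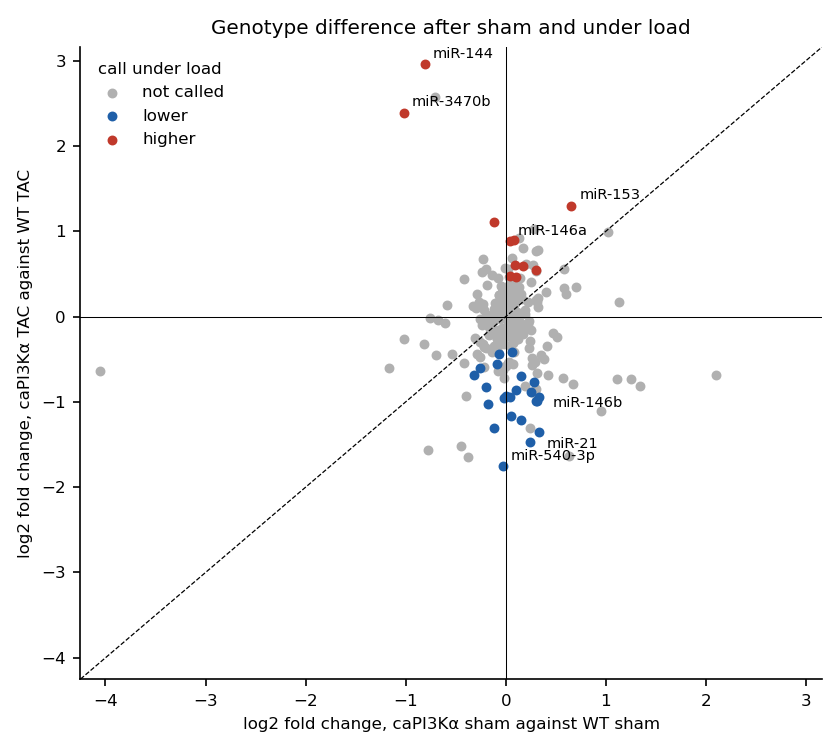
The x axis is the log2 fold change, caPI3Kalpha sham against WT sham, and the y axis the log2 fold change, caPI3Kalpha TAC against WT TAC, for 262 miRNAs; the dashed line marks equal differences, and colours are the calls under load. miR-21 (0.24, -1.47) and miR-146b (0.3, -0.99) lie far below the line, and no miRNA was called on the x axis.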

How the data were processed

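Small RNA from mouse left ventricle was sequenced single-end on an Illumina HiSeq, per the labels' protocols. The deposited miRNA table holds raw read counts per mature miRNA, named as in miRBase 16, per the file headers; the messenger RNA table that the authors deposited holds RPKM. The submitters' processing notes list mm9 as build and the tools Bowtie, Partek 6.5 and CASAVA 1.6, with no role for any; the mapping settings, and how reads that fit several miRNAs were handled, are not stated there. RPKM values were read for single genes and not tested.

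Groups came from the labels. All 16 small RNA libraries in 4 groups entered one edgeR 4.0.16 quasi-likelihood fit (R 4.3.3; TMM scaling, filterByExpr), with Benjamini-Hochberg adjustment over the 262 miRNAs kept and a threshold of 0.05. The SE is the log2 fold change divided by the square root of F. Within each of the 4 groups, every pair of libraries differed by more than counting noise (chi-square per degree of freedom of at least 46.9). Depth was 3114229 to 7676588 reads per library. In counts simulated from these groups for caPI3Kalpha TAC against WT TAC on 262 miRNAs, the fit recovered 72.5% of miRNAs changed 2-fold and 93.5% of those changed 4-fold, with 1.8 unchanged miRNAs called on average. The simulated libraries were drawn independently and held no shift between library sets. The rates apply to that setting and may differ in the real libraries.

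The miRNAs named were the largest rises and falls among calls without overlap (up to 8 each), the preset markers, up to 3 members of each list by p, a preset set of cardiac miRNAs, interaction calls and the 5 most read; all other calls are named too. Members and lists were chosen with earlier results of these data known. Alternatives were DESeq2 1.42.0, its size factors, library totals, no filter, a mean of at least 10 CPM, robust fitting, the library set as a term, each set alone, TAC libraries alone and leaving out each library. Sequences were matched by name to RefSeq with Python 3.11.15.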

Additional observations from a re-analysis of the deposited data

Results flagged for a closer look

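Each of the 71 miRNAs named or called was examined in WT TAC and in caPI3Kalpha TAC, and 6 of these groups had a library set apart from the others by more than Dixon's limit; chance alone sets apart about 1 in 20 groups. miR-30d was at 22939 CPM in WT TAC 2, with the next at 19311.1. miR-144 was at 52.9 CPM and miR-451 at 507.4 CPM in WT TAC 1, with the next at 20.1 and 182.2. miR-145 was at 512.7 CPM in WT TAC 19, below the next lowest at 617.3. miR-34b-5p was at 7.32 CPM in caPI3Kalpha TAC 11, with the next at 4.37, and miR-3470b at 28.1 CPM in caPI3Kalpha TAC 9, with the next at 6.15. Of these, miR-3470b and miR-144 are among the calls under load. The genotype difference depended on the operation for miR-21 (interaction log2 -1.71) and miR-146b (-1.29), both past the threshold of edgeR's test.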

How the results depend on the processing

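The 34 calls under load became 64 with the library set as a term and 13 in the set with a space alone, and 15 to 25 when one TAC library was left out; each omission except that of WT TAC 19 lowered the count by over 1.5 times. DESeq2 gave 47 and library totals 48. The 2 interaction calls became 4 by library totals, 6 by DESeq2, 4 at a mean of at least 10 CPM, 14 with the set term, 1 in the set without a space, 0 in the set with a space, and 0 to 5 when one library was left out (0 in each fit without one TAC library). The count of 0 after sham held in each setting run. Calls of miR-21 (log2 -1.66 to -1.31), miR-146b (-1.17 to -0.83), miR-223, miR-300 and miR-341 held in all 19 settings of the load comparison; 11 of the 34 held in all 9 fits that left out one library, and none of the 34 reversed. The fits with fewer libraries have less power by construction; for the other changes the cause was not tested. Depth limits the scarce miRNAs, such as miR-540-3p at 0.778 to 5.67 CPM. No paired analysis was possible because the 2 TAC groups share no animal number (1, 2, 17, 19 and 20 against 8, 9, 11 and 211).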
